A study of Mus musculus with 20 samples.

Results

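The late interval of an RNA decay time course, between 4 and 8 h of transcription block, was compared between mouse embryonic stem cells (ESCs) in which Cnot3 had been deleted and ESCs in which it had not. The comparison rests on 8 of the 20 libraries of the series, chosen by their labels: 2 replicates each of cells given 4-hydroxytamoxifen and actinomycin D for 4 h, the same for 8 h, cells given no 4-hydroxytamoxifen and actinomycin D for 4 h, and the same for 8 h. All of these cells carry a conditional Cnot3 allele and are described by the source label as Cnot3 cKO ESCs, with C57BL/6 as the strain. The arm called 4OH had received 0.1 µM 4-hydroxytamoxifen, the agent that triggers the deletion, and the arm called WT had received DMSO. On day 2 both arms were given 10 µg/ml actinomycin D, which stops synthesis of RNA, and total RNA was sequenced. The recombinase, the culture conditions and the number of clones behind the line are not given in the sources used here, and neither is any RNA added as a standard. The quantity of interest is a difference of differences, called the interaction here: the log2 change of a transcript between 4 and 8 h in 4OH minus the same change in WT. A positive interaction means that a transcript kept more of its 4 h level in 4OH cells than in WT cells.

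CNOT3 belongs to CCR4-NOT, which shortens the poly(A) tails of mRNAs in the cytoplasm and so starts the decay of most of them. Proteins that bind elements in the 3′ UTR, such as the Pumilio proteins, the ZFP36 family and the microRNA partners TNRC6A to TNRC6C, bring the complex to particular mRNAs, and CNOT3 binds other subunits of its scaffold. In ESCs, CNOT3 is known as a factor that helps to keep the pluripotent state.

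Because every library is scaled to the RNA it holds, a level at 8 h is given relative to the RNA that is left in the cells. A value above 100% of the 4 h level means a rise relative to the bulk, as for a transcript lost more slowly than the rest. It does not by itself show that the transcript was made. Whether any synthesis remained under actinomycin D was not tested. Levels are given in CPM, the reads of a gene scaled to the size of its library, after TMM scaling, a correction for unequal composition of libraries. Of 15027 genes tested, the interaction was higher in 2285 (15.2%) and lower in 1306 (8.69%) by edgeR's quasi-likelihood test at an adjusted p below 0.05 (Benjamini-Hochberg). Among the called genes 63.6% were thus higher. The split was 73.8% higher when libraries were scaled to ribosomal protein mRNAs and 49.6% when the 0 h libraries were added to the fit, which gave 1763 higher and 1791 lower. Scaling to the mRNAs encoded in mitochondria, whose share of counts was 0.741% and 0.963% in the 2 WT libraries of 4 h, left 157 higher and 83 lower. The number of lower genes was 789 without 4OH replicate 1 of 4 h, 853 without 4OH replicate 2 of 4 h and 846 without 4OH replicate 1 of 8 h. DESeq2 called 1655 higher and 653 lower.

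The 8 libraries held between 14513891 and 33262905 reads assigned to genes, and 19537 to 20554 genes had a read. Reads outside annotated genes came to 8.10% and 8.12% in the WT libraries of 8 h and to between 5.26% and 6.47% in the other 6, and their part in the results was not tested. The design names biological replicates but does not say how they were grown, so p-values measure the spread between the libraries at hand. Sums of markers in this paragraph are CPM by library totals, without TMM scaling. TMM factors, by which such levels would be divided, were 1.04 to 1.13 in 4OH and 0.89 to 0.96 in WT. All 11 markers of ESC identity were found, with summed levels of 3920 to 4162 CPM in 4OH and 4199 to 4449 CPM in WT. The 19 markers of feeder fibroblasts summed to 427 to 463 CPM in 4OH and 265 to 299 CPM in WT, with 7 of them under 1 CPM and 2 at 0. Most of that sum was Vim, at 256 to 308 CPM in 4OH and 172 to 215 CPM in WT after TMM scaling. Of 13 feeder markers tested, 5 were higher and 1 lower in 4OH at 4 h (34.6% and 33.6% of all genes). At 8 h, 3 were higher and 1 lower (36.7% and 35.5% of all genes). The 10 markers of trophectoderm, the outer layer of the blastocyst, summed to 154 to 199 CPM in 4OH and 47.2 to 85.5 CPM in WT, with 2 under 1 CPM. The part of these cell types in the results was not tested. In bulk RNA, fewer cells of a type and less RNA per cell cannot be told apart.

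Cnot3 itself (ENSMUSG00000035632) was measured first. It stood at 8.65 and 10.8 CPM at 4 h and 7.17 and 6.398 CPM at 8 h in 4OH cells, against 102 and 101 CPM at 4 h and 101 and 101 CPM at 8 h in WT cells. Every 4OH library lay below every WT library at both times. What was left in 4OH fell over the interval (log2 change -0.48 ± 0.10, SE), and the change in WT missed the threshold (-0.01 ± 0.05, adjusted p = 0.934, edgeR's quasi-likelihood test). The interaction was -0.48 ± 0.11 (adjusted p = 0.000959, edgeR's quasi-likelihood test), and -0.32 (adjusted p = 0.076) without 4OH replicate 2 of 4 h.

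The arms differed in opposite ways in the 2 classes of called genes. In the higher class the median late change was 0.04 in 4OH and -0.42 in WT, with a median interaction of 0.39. In the lower class it was -0.31 in 4OH and 0.27 in WT, with a median interaction of -0.46. Over all genes tested the medians were 0.01 in both arms and 0.01 for the interaction. Among the higher genes 69 had an interaction of 1 or more on the log2 scale, and among the lower genes 147 had one of -1 or less. The late changes of the arms did not overlap for any choice of replicates in 2282 higher genes (99.9%) and 1299 lower genes (99.5%). The share was 28.7% in genes that were not called and 45.7% over all genes tested. Genes with more reads have less error, and the median of the average log2 CPM was 5.90 in the higher class, 4.44 in the lower class and 2.97 in genes that were not called, so that the calls favour genes of higher level.

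**Figure D1:**
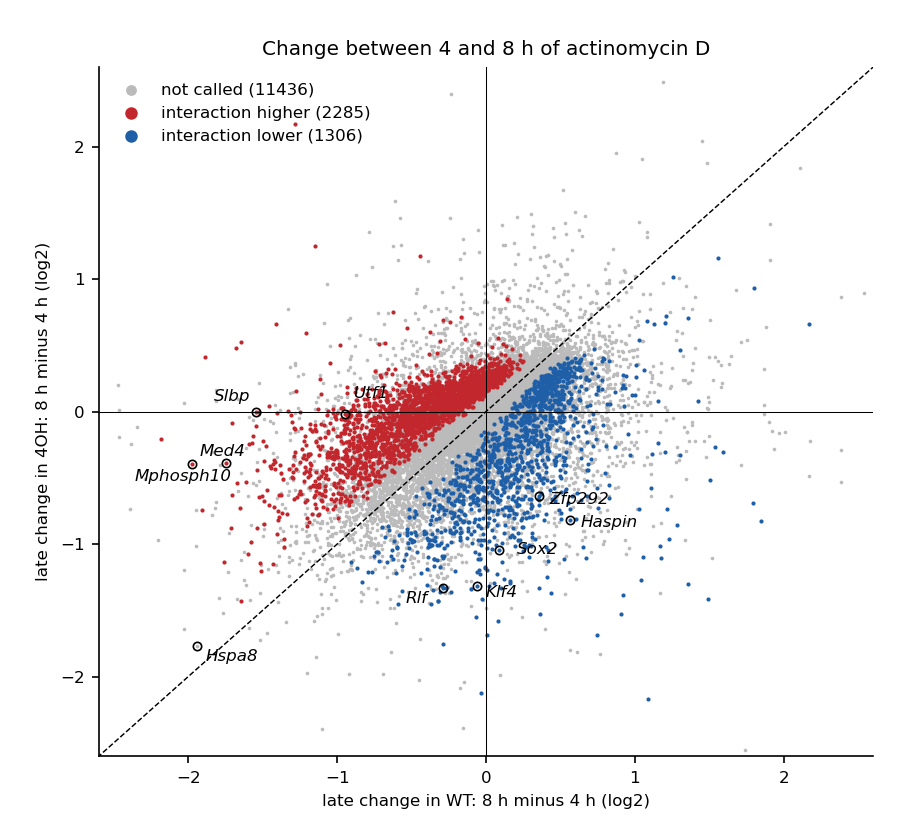
Log2 change between 4 and 8 h in 4OH (vertical axis) and WT (horizontal axis), 1 point for each of 15027 genes (22 lie outside the axes), with higher interactions in red (2285), lower ones in blue (1306), the others in grey and a dashed line at equal change. Slbp and Utf1 sit near 0 in 4OH and far below 0 in WT, Klf4 and Sox2 near 0 in WT and far below 0 in 4OH, and Hspa8 falls in both arms.

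Of 3364 genes whose relative level fell over the interval in 4OH (22.4% of those tested) 622 were of the higher class, 685 of the lower class and 2057 of neither. Of 3890 genes that fell in WT (25.9%) 1792 were of the higher class, 154 of the lower class and 1944 of neither. The 1792 genes are the transcripts whose late loss was measurably smaller after deletion of Cnot3, and their median late change was -0.04 in 4OH and -0.52 in WT. The largest group in the higher class, 873 genes (38.2%), fell in WT with no call in 4OH. A further 622 (27.2%) fell in both arms, but less in 4OH, and 297 (13.0%) rose in 4OH while they fell in WT. The others did not fall in WT by call: 405 (17.7%) rose in 4OH with no call in WT, 61 (2.67%) rose in both arms and 27 (1.18%) had no call in either. In the lower class, 447 genes (34.2%) fell in 4OH with no call in WT, 335 (25.7%) rose in WT with no call in 4OH, 253 (19.4%) rose in both arms, 154 (11.8%) fell in both and 84 (6.43%) fell in 4OH while they rose in WT. The direction of a change within 1 arm rests on the scaling. Relative to ribosomal protein mRNAs, 48 genes rose and 8748 fell in 4OH, and 262 rose and 8630 fell in WT. The interaction's median over all genes moved by less than 0.1 under every scaling tried. Its calls still depended on the scaling, with 157 higher and 83 lower under scaling to mitochondrially encoded mRNAs.

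The 12 highest interactions, among called genes with an average log2 CPM of at least 3 and arms that do not overlap, all belonged to transcripts that stayed in 4OH at between 76.0% and 112% of their 4 h level and fell in WT to between 25.3% and 41.2%. Med4, a subunit of the Mediator complex that links transcription factors to RNA polymerase, had the highest value of the 12. Its level was 52.4 and 53.3 CPM at 4 h and 42.4 and 37.9 CPM at 8 h in 4OH, against 23.5 and 25.8 CPM at 4 h and 6.31 and 6.15 CPM at 8 h in WT. All 4OH libraries were above all WT libraries, and the gap widened with time. The interaction was 1.58 ± 0.11 (adjusted p = 4.37e-14, edgeR's quasi-likelihood test).

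Slbp encodes the protein that binds the stem-loop of histone mRNAs. It was level in 4OH by value, with 100.5 and 99.8 CPM at 4 h and 101.6 and 98.4 CPM at 8 h, whereas WT had 56.8 and 61.8 CPM at 4 h and 20.6 and 19.96 CPM at 8 h. The groups did not overlap at either time, and the interaction was 1.54 ± 0.07 (adjusted p = 6.19e-19, edgeR's quasi-likelihood test). Kpna2, an importin that carries proteins into the nucleus, had 15.6 and 16.9 CPM at 4 h and 14.7 and 15.2 CPM at 8 h in 4OH, and 12.1 and 11.8 CPM at 4 h and 4.48 and 3.52 CPM at 8 h in WT. Its 4OH libraries nearly met across time, while the WT libraries separated widely (interaction 1.44 ± 0.15). Cdca7, a chromatin protein tied to DNA methylation and cell division, had 167 and 166 CPM at 4 h and 169 and 166 CPM at 8 h in 4OH, and 98.4 and 97.1 CPM at 4 h and 38.2 and 39.6 CPM at 8 h in WT. Its 4OH libraries lay within a narrow range and its WT libraries separated by time, with a late change of 0.01 ± 0.04 in 4OH and -1.33 ± 0.05 in WT, and an interaction of 1.34 ± 0.06.

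Several of the 12 act in ribosome assembly. Brix1, a factor of the large subunit, had 224 and 222 CPM at 4 h and 189 and 188 CPM at 8 h in 4OH, against 108 and 105 CPM at 4 h and 36.4 and 33.9 CPM at 8 h in WT. The 4OH libraries fell modestly and the WT libraries steeply, with an interaction of 1.35 ± 0.06 (adjusted p = 3.18e-19, edgeR's quasi-likelihood test). Mphosph10, part of the U3 particle that processes ribosomal RNA, kept 76.5% in 4OH and 29.8% in WT. Rpf1, which matures the large subunit, kept 112% in 4OH and 41.2% in WT. Nufip1, an assembly factor of box C/D small nucleolar particles, kept 84.7% in 4OH and 33.5% in WT.

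The remaining 4 of the 12 serve transcription, replication and mitosis. Plk1, the kinase that drives mitotic entry, had 188 and 191 CPM at 4 h and 167 and 158 CPM at 8 h in 4OH, against 124 and 132 CPM at 4 h and 44.9 and 45.9 CPM at 8 h in WT (interaction 1.27 ± 0.06, adjusted p = 1.27e-18, edgeR's quasi-likelihood test). Rfc3, a subunit of the clamp loader at replication forks, kept 98.5% in 4OH and 40.3% in WT. Gtf2b, the general transcription factor TFIIB, kept 87.9% in 4OH and 33.8% in WT, and Snapc2, part of the complex that starts transcription of small nuclear RNA genes, kept 99.7% in 4OH and 40.6% in WT. Every one of these 12 genes was already higher in 4OH at 4 h, by between 0.44 (Kpna2) and 2.39 (Snapc2) on the log2 scale.

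**Figure D2:**
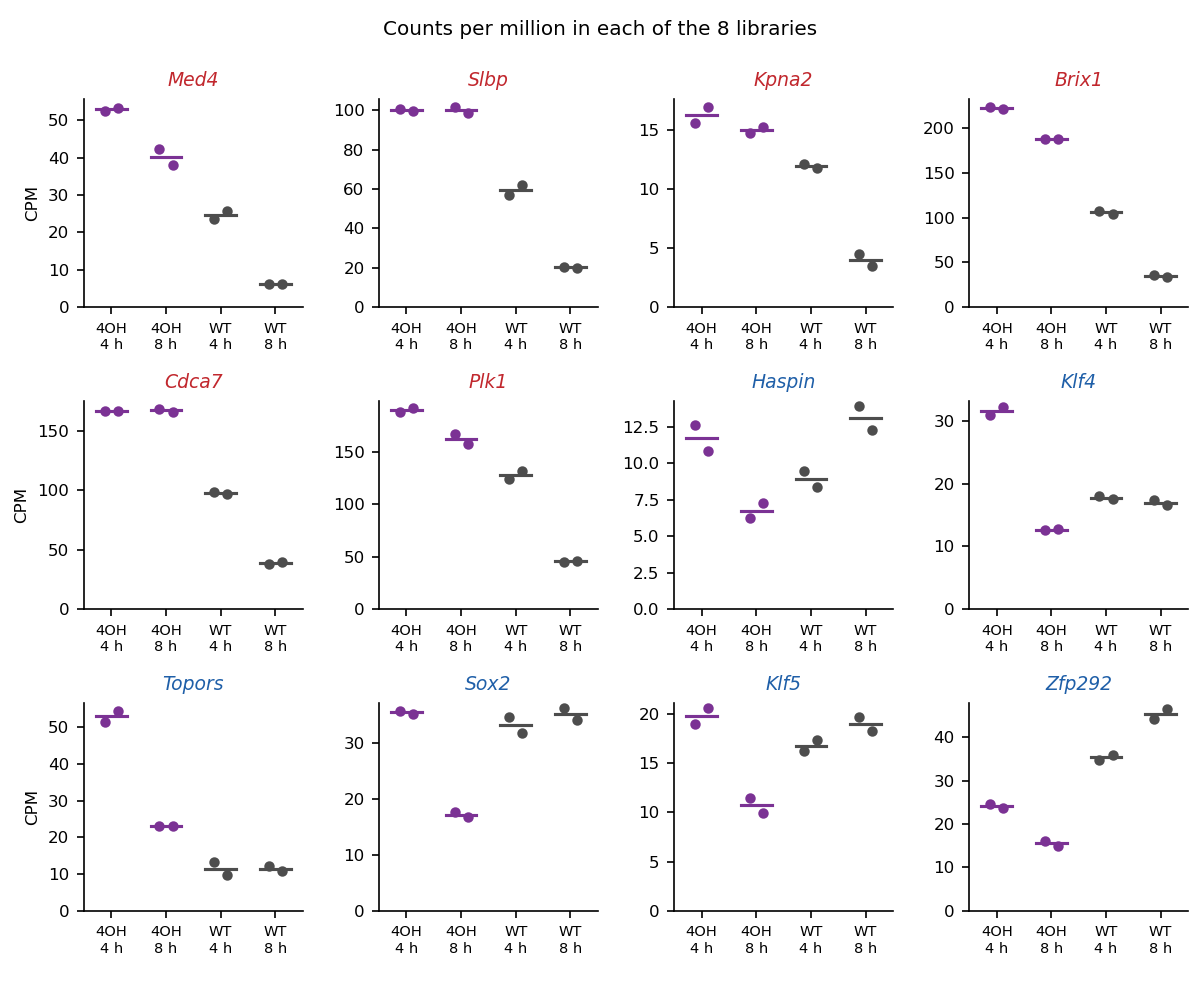
CPM of 12 of the 24 genes with the highest and lowest interactions, 1 panel a gene. The horizontal axis gives the group, 4OH at 4 and 8 h and then WT at 4 and 8 h, the vertical axis starts at 0, each point is 1 library and each bar the mean of 2. The 6 genes with red names hold most of their level in 4OH and fall steeply in WT, and the 6 with blue names fall in 4OH and hold or rise in WT.

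The 12 lowest interactions, chosen within the same limits, showed the reverse. Haspin, a kinase that marks histone H3 in mitosis, had the lowest value of the 12. It stood at 12.6 and 10.9 CPM at 4 h and 6.22 and 7.28 CPM at 8 h in 4OH, against 9.48 and 8.38 CPM at 4 h and 13.9 and 12.3 CPM at 8 h in WT. The order of the arms turned round over the interval, with 4OH above WT at 4 h and below it at 8 h in every library. The late change was -0.82 ± 0.11 in 4OH and 0.56 ± 0.11 in WT, and the interaction was -1.38 ± 0.16 (adjusted p = 4.07e-09, edgeR's quasi-likelihood test).

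Regulators of pluripotency were among them. Klf4, a Krüppel-like transcription factor of the naive state, had 30.996 and 32.2 CPM at 4 h and 12.5 and 12.8 CPM at 8 h in 4OH, against 17.96 and 17.5 CPM at 4 h and 17.3 and 16.5 CPM at 8 h in WT. It crossed the WT level in the same way as Haspin, with a late change of -1.32 ± 0.08 in 4OH and -0.06 ± 0.08 in WT and an interaction of -1.25 ± 0.12 (adjusted p = 4.16e-11, edgeR's quasi-likelihood test). Sox2, a partner of OCT4, had 35.8 and 35.3 CPM at 4 h and 17.7 and 16.8 CPM at 8 h in 4OH, and 34.7 and 31.9 CPM at 4 h and 36.3 and 34.1 CPM at 8 h in WT. The difference between the arms missed the threshold at 4 h (0.10 on the log2 scale, adjusted p = 0.217, edgeR's quasi-likelihood test) and passed it at 8 h (-1.03), and the interaction was -1.13 ± 0.10. Klf5, a relative of Klf4, kept 54.0% in 4OH and 113% in WT.

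Topors, a ligase for ubiquitin and SUMO, had 51.4 and 54.4 CPM at 4 h and 22.96 and 23.2 CPM at 8 h in 4OH, against 13.3 and 9.61 CPM at 4 h and 12.1 and 10.7 CPM at 8 h in WT. Here 4OH stayed above WT throughout but moved toward it, with an interaction of -1.20 ± 0.14. Zfp292, a zinc finger protein, had 24.7 and 23.7 CPM at 4 h and 16.1 and 14.9 CPM at 8 h in 4OH, against 34.9 and 35.98 CPM at 4 h and 44.3 and 46.4 CPM at 8 h in WT, so that a gap already present at 4 h grew (interaction -0.99 ± 0.10). The other 6 were Ppp1r10, a nuclear subunit of protein phosphatase 1, Map3k1, a kinase upstream of JNK, Lzts2, Zswim1, the zinc finger gene Rlf, and Ccdc92b. They kept between 38.7% (Zswim1) and 54.6% (Map3k1) in 4OH and between 80.3% (Zswim1) and 120% (Map3k1) in WT, with interactions between -1.13 (Ppp1r10) and -0.99 (Ccdc92b). All 24 genes kept their direction and their call under each alternative run, leaving out single libraries included.

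The interval from 0 to 4 h was read from a fit of all 12 actinomycin D libraries. Both intervals share the 4 h libraries, so that a library error at 4 h enters them with opposite signs, and the values are set side by side without a test. In the higher class the median early change was 0.07 in 4OH and -0.07 in WT, followed by 0.02 in 4OH and -0.38 in WT in the late interval of that fit. In the lower class it was -0.56 in 4OH and -0.72 in WT, followed by -0.33 in 4OH and 0.30 in WT. A fall in the first 4 h was called in 58.2% of the lower class in 4OH and 56.7% in WT, where the shares over all 15823 genes of that fit were 33.6% in 4OH and 36.2% in WT. For the higher class the shares with a fall in the first 4 h were 27.4% in 4OH and 44.8% in WT.

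Single genes show the same course. Klf4 changed by -2.35 in 4OH and -3.86 in WT in the first 4 h. Sox2 changed by -3.78 in 4OH and -4.31 in WT, and Haspin by -2.22 in 4OH and -2.73 in WT. These transcripts had thus lost most of their level in both arms, and more in WT by value, before the late interval began. Med4, in contrast, changed by -0.26 in 4OH and -1.12 in WT in the first 4 h, and Mphosph10 by -0.22 in 4OH and -1.41 in WT, the same order of the arms as between 4 and 8 h. At the 2 ends of the late interval, 1149 genes of the higher class (50.3%) were above WT at 4 and 8 h, 477 (20.9%) were above it only at 8 h by call and 149 (6.52%) were below it at 4 h and above it at 8 h. Over all genes, 5206 were higher (34.6%) and 5043 lower (33.6%) in 4OH at 4 h, and 5508 higher (36.7%) and 5336 lower (35.5%) at 8 h.

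**Figure D3:**
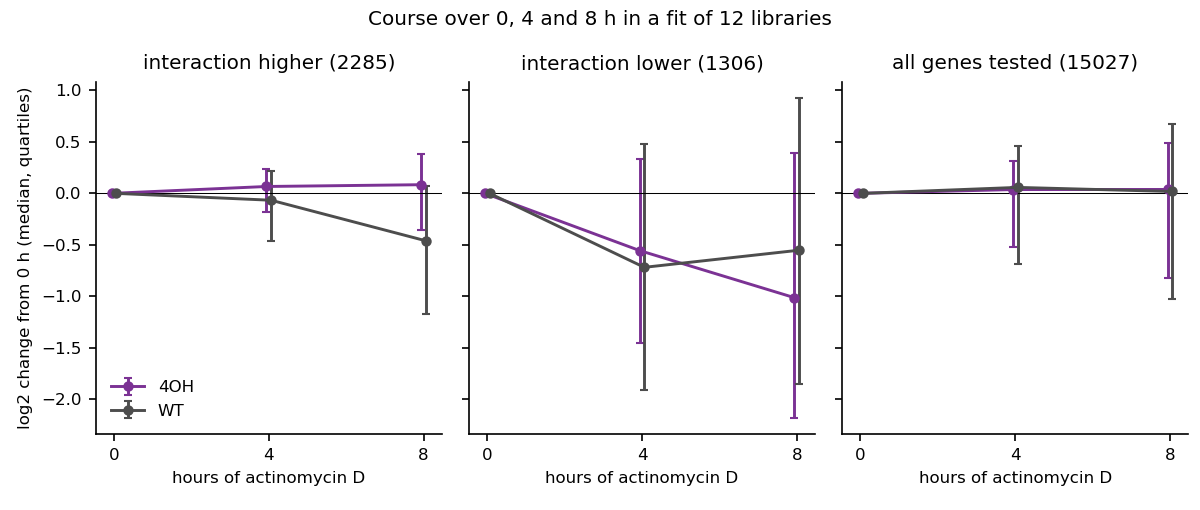
Median log2 change from 0 h, with quartiles as bars, in genes of higher interaction (left), of lower interaction (middle) and in all genes tested (right), against hours of actinomycin D. Purple is 4OH and grey is WT, in a fit of 12 libraries. The higher class stands at 0.08 in 4OH and -0.46 in WT after 8 h and the lower class at -1.01 in 4OH and -0.55 in WT, with the lines of the lower class crossing between 4 and 8 h.

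Some transcripts moved in opposite directions in the 2 arms, and those given here were picked after their values were seen. Dnajc2, a chaperone bound to the ribosome, had 255 and 255 CPM at 4 h and 313 and 317 CPM at 8 h in 4OH, against 238 and 236 CPM at 4 h and 172 and 180.4 CPM at 8 h in WT. It rose by 0.30 ± 0.04 in 4OH and fell by 0.43 ± 0.04 in WT. Stx18, a syntaxin of the endoplasmic reticulum, changed by 0.32 ± 0.08 in 4OH and -0.61 ± 0.11 in WT, and Anapc10, a subunit of the anaphase-promoting complex, by 0.29 ± 0.07 in 4OH and -0.67 ± 0.09 in WT. Rbm15, which helps to place N6-methyladenosine on RNA, changed by -0.40 ± 0.10 in 4OH and 0.52 ± 0.08 in WT. Fzd5, a Wnt receptor, changed by -0.35 ± 0.10 in 4OH and 0.53 ± 0.07 in WT.

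Some of the strongest late losses were shared by both arms. Hspa8, the constitutive HSP70 chaperone, had 69.9 and 66.6 CPM at 4 h and 19.9 and 20.4 CPM at 8 h in 4OH, against 135 and 137 CPM at 4 h and 36.05 and 34.4 CPM at 8 h in WT. It fell steeply in each arm, with a late change of -1.77 ± 0.06 in 4OH and -1.94 ± 0.05 in WT, and the interaction of 0.18 ± 0.08 missed the threshold (adjusted p = 0.0883, edgeR's quasi-likelihood test). Ddx6, an RNA helicase that joins CCR4-NOT to decapping, changed by -1.43 ± 0.05 in 4OH and -1.65 ± 0.05 in WT. Mycn, a relative of MYC named after its values were seen, changed by -1.35 ± 0.08 in 4OH but -0.36 ± 0.09 in WT. Noncoding RNAs were among the highest rises in both arms, with 7SK RNA (Rn7sk) at 1.84 ± 0.12 in 4OH and 2.11 ± 0.09 in WT and the mitochondrial 16S ribosomal RNA (mt-Rnr2) at 1.16 ± 0.03 in 4OH and 1.56 ± 0.03 in WT. In all 3612 genes rose in 4OH (24.0%) and 3595 in WT (23.9%).

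Gene lists were read against the 15.2% of all genes that were higher and the 8.69% that were lower. Those shares depend on level, and the lists were not matched for it. Among coding genes with an average log2 CPM of at least 5, 31.0% were higher and 10.1% lower. The lists were chosen with earlier results of these data known and are described by counts and medians alone. Within CCR4-NOT, 3 of 11 measured subunits were higher and 3 lower, Cnot3 itself among the lower ones. Cnot11, which with CNOT10 forms a module of the complex, had 59.98 and 57.3 CPM at 4 h and 56.6 and 57.7 CPM at 8 h in 4OH, against 62.4 and 61.5 CPM at 4 h and 39.8 and 36.8 CPM at 8 h in WT. Only the WT libraries of 8 h stood apart (interaction 0.65 ± 0.07, adjusted p = 2.8e-09, edgeR's quasi-likelihood test). Cnot2, the partner of CNOT3, kept 71.8% in 4OH and 58.02% in WT (0.31 ± 0.07), and Cnot4, a ubiquitin ligase, kept 50.9% in 4OH and 88.1% in WT (-0.80 ± 0.13). Among 22 other deadenylation and decapping factors 7 were higher and 3 lower. Edc3, which enhances decapping, kept 84.1% in 4OH and 58.9% in WT, and Dcp1a, an activator of the decapping enzyme, kept 64.5% in 4OH and 114% in WT.

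Of 28 RNA-binding proteins known to recruit the complex, 1 was higher and 7 lower, with a median interaction of -0.17 against 0.01 for all genes. Ythdf2, a reader of N6-methyladenosine, kept 52.7% in 4OH and 77.6% in WT, and Tnrc6a, a microRNA effector, 94.7% in 4OH and 120.1% in WT. The 1 higher member, the helicase gene Helz, kept 97.9% in 4OH and 78.5% in WT.

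In ribosome biogenesis 38 of 55 genes were higher and 0 lower, with a median late change of 0.13 in 4OH and -0.17 in WT. Utp18, of the small-subunit processome, had 244 and 258 CPM at 4 h and 282 and 282 CPM at 8 h in 4OH, against 114 and 117 CPM at 4 h and 66.1 and 70.3 CPM at 8 h in WT (interaction 0.93 ± 0.06). Polr1c, shared by RNA polymerases I and III, kept 113% in 4OH and 54.5% in WT, and the RNA methyltransferase gene Nop2 kept 84.6% in 4OH and 53.1% in WT. Translation factors followed, with 30 of 64 higher and 2 lower. Eif4b, a cofactor of the initiation helicase, averaged 1127 CPM at 4 h and 1206 CPM at 8 h in 4OH, and 850.1 CPM at 4 h and 482 CPM at 8 h in WT (0.92 ± 0.05). Eif3a and Eif6 kept 93.7% and 96.3% in 4OH and 60.3% and 54.7% in WT. Among mRNAs of the ribosomal proteins themselves 9 of 87 were higher and 15 lower, with a median of -0.05. Rplp1, a stalk protein, kept 124% in 4OH and 149% in WT.

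Cell cycle lists leaned the same way. Of 33 mitotic kinases and regulators 23 were higher and 1 lower, with a median of 0.43. The mitotic kinase gene Haspin, at -1.38, was not on that list, whose lowest member stood at -0.74. Ccna2, cyclin A2, had 245 and 246 CPM at 4 h and 239 and 239.6 CPM at 8 h in 4OH, against 184 and 186 CPM at 4 h and 90.5 and 93.1 CPM at 8 h in WT. The level was steady in 4OH by value and fell to 49.5% in WT (interaction 0.98 ± 0.05, adjusted p = 2.16e-17, edgeR's quasi-likelihood test). Aurka, a spindle pole kinase, kept 104% in 4OH and 55.1% in WT, and Prc1, a bundler of the central spindle, 105% in 4OH and 58.03% in WT. Of 44 DNA replication genes 25 were higher and 3 lower. Orc1, of the origin recognition complex, kept 90.8% in 4OH and 51.5% in WT, Cdc45 of the replicative helicase 85.1% in 4OH and 45.4% in WT, and Gmnn, the licensing inhibitor geminin, 114% in 4OH and 69.9% in WT.

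Mediator subunits were split, with 10 of 29 higher and 4 lower. Beside Med4, Med17 of the head module had 154 and 149.9 CPM at 4 h and 143 and 145 CPM at 8 h in 4OH, against 53.2 and 47.7 CPM at 4 h and 20.7 and 20.01 CPM at 8 h in WT. It was flat in 4OH by value and fell steeply in WT (1.22 ± 0.08, adjusted p = 6.72e-16, edgeR's quasi-likelihood test). Med6 kept 88.1% in 4OH and 42.9% in WT. Proteasome subunits had 14 of 37 higher and 0 lower, and Psmd7, of the lid, kept 103% in 4OH and 65.2% in WT. Cholesterol synthesis had 9 of 23 higher and 1 lower, with Msmo1 at 80.9% in 4OH and 48.3% in WT. Families picked after the values were seen showed 35 of 73 mitochondrial ribosomal protein genes higher and 0 lower, 12 of 28 RNA polymerase subunits higher and 1 lower, 6 of 9 exosome subunits higher and 0 lower, and 9 of 15 Integrator subunits higher and 3 lower. Mrpl44 kept 101% in 4OH and 48.9% in WT, whereas Ints6 kept 58.7% in 4OH and 113% in WT.

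**Figure D4:**
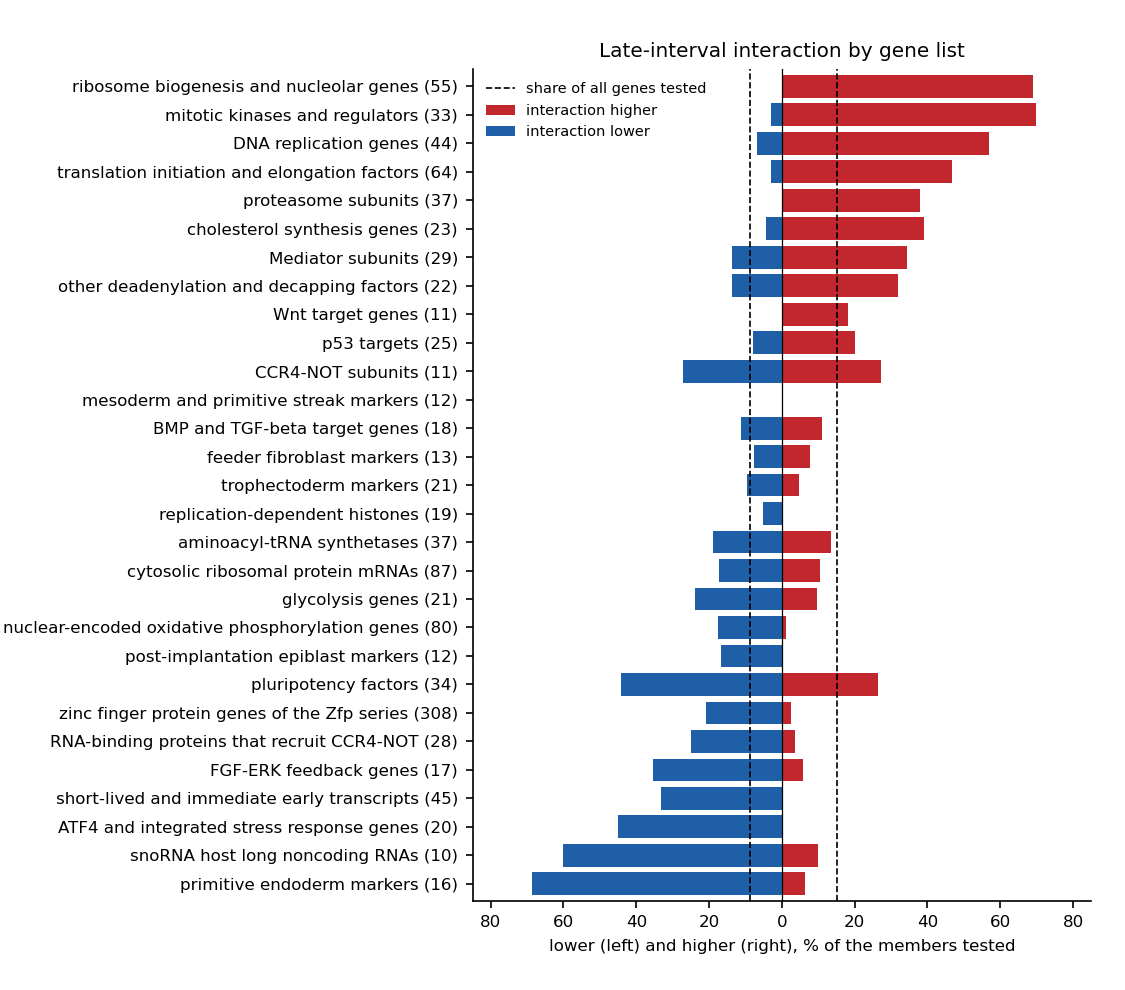
Share of each gene list with a lower interaction (blue, left) and a higher one (red, right), in percent of the members tested, whose number stands in brackets. Dashed lines mark the shares over all genes, 8.69% lower and 15.2% higher. Ribosome biogenesis (38 of 55) and mitosis (23 of 33) reach furthest to the right, and primitive endoderm markers (11 of 16) furthest to the left.

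Of 45 short-lived and immediate early transcripts 0 were higher and 15 lower, with a median interaction of -0.42 and a median late change of -0.51 in 4OH and 0.02 in WT. Myc, the growth regulator, had 6.34 and 7.85 CPM at 4 h and 3.31 and 3.53 CPM at 8 h in 4OH, against 4.38 and 4.19 CPM at 4 h and 5.26 and 5.04 CPM at 8 h in WT. It fell below WT in 4OH by 8 h in both libraries (interaction -1.30 ± 0.21, adjusted p = 7.13e-06, edgeR's quasi-likelihood test). Ier2, an immediate early gene, kept 73.6% in 4OH and 145% in WT, Klf10 60.7% in 4OH and 110.2% in WT, and the kinase gene Pim3 63.3% in 4OH and 113% in WT. Among 17 genes of the FGF-ERK pathway 1 was higher and 6 lower. Spry4, a feedback inhibitor, had 11.9 and 10.6 CPM at 4 h and 8.78 and 7.898 CPM at 8 h in 4OH, against 34.3 and 30.5 CPM at 4 h and 47.99 and 43.4 CPM at 8 h in WT. The arms lay apart at both times, more so at 8 h (-0.94 ± 0.13). Fgf4, the ligand that ESCs make, kept 79.2% in 4OH and 126% in WT.

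Transcription factor families with zinc fingers leaned the same way. Of 308 genes of the Zfp series 8 were higher and 64 lower, with a median of -0.29. Zfp281, an activator and repressor in ESCs, had 48.005 and 49.2 CPM at 4 h and 25.4 and 28.2 CPM at 8 h in 4OH, against 57.3 and 54.9 CPM at 4 h and 62.7 and 59.7 CPM at 8 h in WT (interaction -0.99 ± 0.08, adjusted p = 4.26e-13, edgeR's quasi-likelihood test). The exceptions included Zfp706, with 87.2% kept in 4OH and 55.7% in WT. In families picked after the values were seen, 0 of 15 Krüppel-like factors were higher and 9 lower, and 0 of 38 genes of the Zbtb series were higher and 11 lower.

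Pluripotency factors went both ways, with 9 of 34 higher and 15 lower. So did the 11 ESC markers of the identity check, with 4 higher and 5 lower. These lists share members, Utf1, Tdgf1, Sox2 and Klf4 among them, and are not separate evidence. Beside Sox2, Klf4 and Klf5 on the lower side, Utf1, a chromatin-bound factor of ESCs, had 596 and 631 CPM at 4 h and 619.5 and 593 CPM at 8 h in 4OH, against 303 and 279 CPM at 4 h and 154 and 148 CPM at 8 h in WT. It was steady in 4OH by value and fell to 51.9% in WT (0.93 ± 0.05, adjusted p = 4.97e-15, edgeR's quasi-likelihood test). Tdgf1, a co-receptor for Nodal, had 423 and 410.4 CPM at 4 h and 472 and 468 CPM at 8 h in 4OH, and 629 and 689 CPM at 4 h and 449.5 and 471 CPM at 8 h in WT, so that the arms met at 8 h. Nanog and Esrrb, named after their values were seen, kept 117% and 70.8% in 4OH and 85.1% and 52.4% in WT. Pou5f1, also named afterwards, which encodes OCT4, kept 124% in 4OH and 141% in WT (-0.19 ± 0.05), and its call was lost without 4OH replicate 2 of 4 h (-0.13, adjusted p = 0.104, edgeR's quasi-likelihood test).

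Markers of primitive endoderm, the blastocyst lineage that forms yolk sac, had 1 of 16 higher and 11 lower. Lama1, a laminin chain, had 187 and 189 CPM at 4 h and 220.1 and 229.7 CPM at 8 h in 4OH, against 237 and 235 CPM at 4 h and 369 and 384 CPM at 8 h in WT. Both arms rose relative to the bulk, WT more (interaction -0.41 ± 0.05). Cubn, a receptor of the yolk sac, kept 137% in 4OH and 248% in WT. Of the other lineages, trophectoderm markers had 1 of 21 higher and 2 lower, epiblast markers 0 of 12 higher and 2 lower, mesoderm markers 0 of 12 in either direction, neuroectoderm markers 1 of 9 higher and 0 lower, and genes of the 2-cell stage 0 of 9 higher and 1 lower. Feeder markers had 1 of 13 higher and 1 lower. Of 10 host transcripts of small nucleolar RNAs, 6 were lower, among them Gas5 (129% kept in 4OH, 163% in WT), and the 1 higher member, Cyth2, is a coding gene.

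Lists for stress, metabolism and signalling completed the set. Stress genes of the ATF4 pathway had 0 of 20 higher and 9 lower, with Slc7a5, an amino acid transporter, at 112% in 4OH and 131% in WT. p53 targets had 5 of 25 higher and 2 lower, with Ccng1, cyclin G1, at 101% in 4OH and 64.4% in WT. Glycolysis had 2 of 21 higher and 5 lower, oxidative phosphorylation 1 of 80 higher and 14 lower, and aminoacyl-tRNA synthetases 5 of 37 higher and 7 lower. BMP and TGF-beta targets had 2 of 18 higher and 2 lower, Wnt targets 2 of 11 higher and 0 lower, histones 0 of 19 higher and 1 lower, and mitochondrially encoded mRNAs 0 of 7 in either direction.

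The sequences of the called transcripts were compared with those of all 13734 coding genes that had a complete transcript in GENCODE M21 (GRCm38, matched to the files by gene ID), taking the transcript with the longest coding sequence. The Pumilio element was searched as TGTANATA in the 3′ UTR, on the sense strand, with N for any base. At least 1 copy was found in 29.3% of higher genes, 29.7% of lower genes, 20.4% of genes not called and 22.8% of all. Genes with the element had a median late change of -0.18 in 4OH and -0.18 in WT, against 0.05 in 4OH and 0.04 in WT for genes without it. Among the named genes, 5 of the 12 highest (Med4, Kpna2, Gtf2b, Brix1, Cdca7) and 5 of the 12 lowest (Ppp1r10, Sox2, Map3k1, Klf5, Zfp292) held it. The windows below show that the same element stands in transcripts of both classes. They are written 5′ to 3′ on the sense strand with the element in capitals, from GENCODE M21.
Med4, chr14:73518232-73518261, plus strand: tagtgtttggtTGTACATAgcagccctggc
Kpna2, chr11:106988713-106988742, minus strand: cagttataaacTGTACATActctatgaagc
Brix1, chr15:10476273-10476302, minus strand: tgtattccatgTGTAAATActtttagtata
Sox2, chr3:34652339-34652368, plus strand: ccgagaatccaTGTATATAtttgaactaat
Klf5, chr14:99313905-99313934, plus strand: attccgaatttTGTAAATAtgcaaatcagc
Ppp1r10, chr17:35931413-35931442, plus strand: gtgtgcattgaTGTACATAgtcccctccag
A match is a description of the letters and not a measured site.

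The AU-rich pentamer ATTTA stood in the 3′ UTR of 69.8% of higher genes, 66.0% of lower genes and 63.1% of all. For the microRNAs of ESCs, miR-294-3p was taken as the example, with its seed, bases 2 to 8, in capitals as RefSeq gives it (GRCm38.p6, chr7:3220691-3220712, plus strand).
mmu-miR-294-3p: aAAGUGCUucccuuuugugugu
The match to this seed, AGCACTT, was found in 14.6% of higher genes, 18.4% of lower genes and 14.7% of all. 3′ UTRs were longer in the lower class (median 1048 bases) than over all genes (901 bases). Over all lengths, 11.5% of genes with the match were lower, against 8.76% without it. In the middle 2 of 4 bins of UTR length, 9.50% of genes with the match were lower, against 9.19% without it. For the Pumilio element in those bins, 24.0% of genes with it were higher and 11.8% lower, against 15.9% higher and 8.60% lower without it. Coding sequences were longer in the lower class, with a median of 1872 bases against 1356 in the higher class and 1425 over all genes. When genes were put in 4 bins of equal size by coding length, 15.1% of those in the bin of the longest were lower and 14.2% higher.

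The base at the third codon position was compared as well, a feature added after the values were seen. The median share of G or C there was 54.8% in the higher class, 62.8% in the lower class and 61.4% over all genes. In 4 bins of equal size, the bin with the least had 26.4% higher and 8.45% lower, and the bin with the most had 8.45% higher and 11.3% lower. The bins also differed in level, with a median of the average log2 CPM of 4.74 in the first and 3.43 in the last. Among genes with an average log2 CPM of at least 5, where the medians were 6.51 and 6.31, the shares were 44.2% higher and 6.84% lower in the first bin and 17.0% higher and 16.7% lower in the last. The median late change in those bins was 0.08 in 4OH and -0.11 in WT for the first, and 0.16 in 4OH and 0.18 in WT for the last. Among the named genes of highest interaction, Med4 (48.5%), Brix1 (44.8%), Mphosph10 (43.0%), Slbp, Kpna2, Rpf1, Gtf2b and Nufip1 lay in the first bin. Plk1 (72.3%) lay in the last bin and did not follow that order. Among those of lowest interaction, Sox2 (90.3%), Klf4 (71.6%), Zswim1 (76.3%) and Ccdc92b (81.6%) lay in the last bin. Topors (42.4%), Rlf (42.4%) and Zfp292 (37.8%) lay in the first bin and did not follow that order either. The others lay in the bins between.

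**Figure D5:**
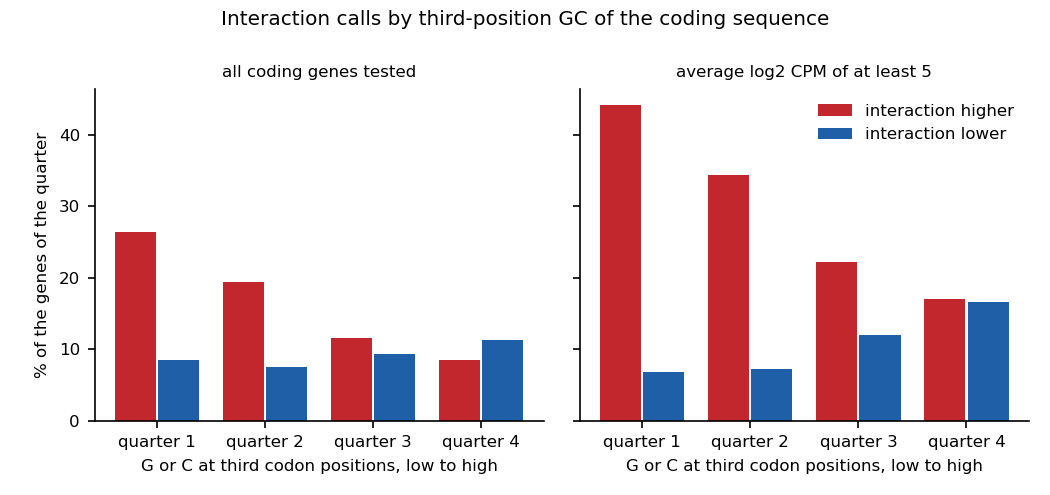
Percent of genes with a higher (red) or lower (blue) interaction in 4 bins of G or C content at the third codon position, from the least to the most, for all coding genes tested (left) and for those with an average log2 CPM of at least 5 (right). The share of higher genes goes down from 26.4% to 8.45% on the left and from 44.2% to 17.0% on the right.

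Of the 160 results for named genes (interactions and late changes) that were followed through the alternatives, 80 lost their call when libraries were scaled to mitochondrially encoded mRNAs, 0 of the 160 changed direction under the alternatives run, and at most 13 lost their call under any other (without 4OH replicate 2 of 4 h).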

How the data were processed

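RNA abundance was measured in 20 libraries, of which 8 enter the comparison and 4 of 0 h serve the values from 0 to 4 h. Per the submitters' processing notes, the authors used STAR 2.3.0e, HTSeq and mm9. The deposited values are raw counts of reads per Ensembl gene. HTSeq's tallies of unassigned reads stayed out of library sizes and tests. Symbols and transcripts came from GENCODE M21 (GRCm38) by gene ID, for 32938 of 37991 IDs. No source used here states strand-specific counting, so overlapping genes may share reads.

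Counts were filtered (filterByExpr, minimum count 10), scaled by TMM and tested with robust quasi-likelihood F-tests in edgeR 4.0.16 (R 4.3.3), with 1 mean per group of 2 libraries and Benjamini-Hochberg adjustment over all 15027 genes. The procedure was tested on simulated data. Libraries held 14513891 to 33262905 counts, and the chi-square between replicates divided by its degrees of freedom lay between 1.29 and 4.39.

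Genes were named by rule: the 12 highest and 12 lowest interactions with an adjusted p below 0.05, an average log2 CPM of at least 3 and arms that do not overlap, up to 4 members of each list by adjusted p, Cnot3, and the extreme late changes of each arm. Others are marked as named after their values were seen, and 1 gene that the rule names is not reported here. Members and lists were chosen with earlier results of these data known. Alternatives were other scalings and filters, DESeq2 1.42.0, a replicate block, 12 libraries and leaving out each library.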

Additional observations from a re-analysis of the deposited data

Results flagged for a closer look

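The change between 4 and 8 h differed between the arms, by a test of the difference itself, in 2285 genes with a higher and 1306 genes with a lower interaction (edgeR's quasi-likelihood test, adjusted p below 0.05). The single genes given here had the most extreme values among called genes with an average log2 CPM of at least 3 and arms that do not overlap. Their interactions on the log2 scale were, on the higher side, Med4 (1.58), Slbp (1.54), Kpna2 (1.44), Rpf1 (1.43), Gtf2b (1.38), Mphosph10 (1.36), Brix1 (1.35), Cdca7 (1.34), Nufip1 (1.33), Rfc3 (1.29), Plk1 (1.27), Snapc2 (1.25). On the lower side they were Haspin (-1.38), Klf4 (-1.25), Topors (-1.20), Ppp1r10 (-1.13), Sox2 (-1.13), Map3k1 (-1.12), Lzts2 (-1.06), Klf5 (-1.06), Zswim1 (-1.05), Rlf (-1.04), Ccdc92b (-0.99), Zfp292 (-0.99). With 2 libraries in a group, no library could be tested as an outlier of its group.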

How the results depend on the processing

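Counts of genes held within 1.5 times of the values given except as follows, and 0 calls of the interaction reversed under the alternatives run. The median of all genes, 0.01 or 0.02 in each arm or time with TMM, was -0.10 in the late changes of both arms and 0.25 in 4OH against WT under library totals. It was -0.33 in 4OH, -0.37 in WT, 0.62 at 4 h and 0.67 at 8 h under ribosomal protein scaling, and 0.24 in 4OH, 0.22 in WT, 0.87 at 4 h and 0.90 at 8 h under mitochondrial scaling. Calls that turned to the opposite direction numbered 143 at 4 h and 105 at 8 h under library totals, 1297 in 4OH, 1177 in WT, 2246 at 4 h and 2097 at 8 h under ribosomal protein scaling, and 2482 at 4 h and 2295 at 8 h under mitochondrial scaling. Under library totals 1897 genes rose in 4OH, 2295 rose in WT and 3142 were lower at 4 h. Under ribosomal protein scaling 48 rose and 8748 fell in 4OH, 262 rose and 8630 fell in WT, 10917 were higher and 847 lower at 4 h, and 10618 higher and 1194 lower at 8 h. Under mitochondrial scaling the interaction was higher in 157 and lower in 83, 828 fell in 4OH, 1215 fell in WT, 11555 were higher and 180 lower at 4 h, and 11090 higher and 307 lower at 8 h. DESeq2 gave 653 lower interactions. The cause of these moves was not tested. Leaving out 1 library at a time gave 1640 to 2839 higher and 789 to 1494 lower interactions, 2883 to 4092 rises and 2574 to 3585 falls in 4OH, 2844 to 3464 rises and 3312 to 3936 falls in WT, 4427 to 5420 higher and 4556 to 5003 lower at 4 h, and 4872 to 5765 higher and 4794 to 5535 lower at 8 h. Replicate numbers were not treated as pairs in the main fit. Deviations of same-numbered libraries correlated between -0.04 and 0.18, and a replicate block gave 2345 higher and 1369 lower interactions. The labels do not say whether same-numbered libraries belong together, and these values cannot decide it. The medians of the lists for Wnt targets and trophectoderm markers changed sign under ribosomal protein scaling, from -0.03 to 0.01 in each. Depth limits what could be called: the median SE of the interaction was 0.18 in genes not called, 0.07 in the higher class and 0.12 in the lower class.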

Other observations

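Collagen chains, a family picked after the values were seen, had 0 of 36 measured members with a higher and 8 with a lower interaction (8.69% of all genes were lower), at a median late change of 0.03 in 4OH and 0.37 in WT. Coding genes with 1 exon numbered 255. Of these 10.2% were lower and 6.27% higher, at a median of the average log2 CPM of 0.51, far below the 4.15 of genes with more exons. The AU-rich nonamer was found in the 3′ UTR of 2015 coding genes, of which 11.7% were lower and 16.1% higher, against 8.72% lower and 16.5% higher among the 11719 genes without it. In the middle 2 of 4 bins of UTR length, 10.1% of genes with the nonamer were lower and 16.7% higher, against 9.09% lower and 17.6% higher without it.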
